A study of Mus musculus with 4 samples.

Results

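The 10 genes studied here receive the Sonic hedgehog signal and carry it to the nucleus. Their levels were followed across cortical astrocyte libraries from mice with or without a conditional PD-1 deletion. The genes were chosen by name, as a list of reception and GLI genes. All 10 were found among the 23475 genes of the joined tables. The study compared mRNA from astrocytes isolated from the mouse cerebral cortex at postnatal day 5. KO denotes 2 libraries from mice called PD1cKO-Cx3, a conditional PD-1 deletion, and WT denotes 2 libraries from PD1fl/fl mice, whose PD-1 gene is floxed. The name of the KO line gives Cx3 with no further account of what drives the deletion or in which cells, and the sources used here do not say whether animals were pooled. Nor do the labels state that each library came from its own animal, and between the WT libraries the spread behind a p-value may be technical.

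Sonic hedgehog (SHH) is a secreted protein that works by releasing a brake. Without it, the receptor PTCH1 keeps the membrane protein SMO inactive and GLI3 is trimmed into a repressor. When SHH binds PTCH1 with the co-receptors GAS1, CDON or BOC, SMO is released, SUFU lets go of the GLI proteins, and GLI2 and GLI3 activate targets that include Gli1, Ptch1 and Hhip themselves. In the postnatal mouse cortex neurons of the deep layers make SHH, and Gli1 is found in a subset of astrocytes.

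Total counts lay between 14224519 and 16961160 per library. The 15 astrocyte markers were all detected in every library, with a lowest count of 134 (Gjb6). The summed astrocyte markers lay between 7978 and 8992 CPM in KO and between 8459 and 9286 CPM in WT, where CPM is the count per 1000000 counts of the TMM-scaled library. All 15 markers of microglia and macrophages were also present, at a sum of 3519 to 4217 CPM in KO and 777 to 1095 CPM in WT. Endothelial markers summed to 254 to 529 CPM in KO and 64.9 to 149.6 CPM in WT, and the 10 neuron markers to 2448 to 2557 CPM in KO and 2754 to 3135 CPM in WT. The 10 markers of the oligodendrocyte lineage summed to 2987 to 3181 CPM in KO and 2032 to 2799 CPM in WT, and those of pericytes, smooth muscle and fibroblasts to 616 to 1080 CPM in KO and 477 to 516 CPM in WT. Pdcd1, the targeted gene, had 20 counts in the library labelled KO 2, had 0 in each WT library, and went unlisted for KO 1, so it does not check the labels. The library labelled KO 2 carried 2472 counts of the Y-linked Ddx3y and 0 of Xist, and KO 1 carried 0 of Ddx3y and 6778 of Xist, so the KO libraries came from different animals. Both WT libraries had 0 counts of Ddx3y. For the 10 genes, the log2 fold change without KO 2 is given wherever it turns round or moves by over 1.5 times.

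**Figure D1:**
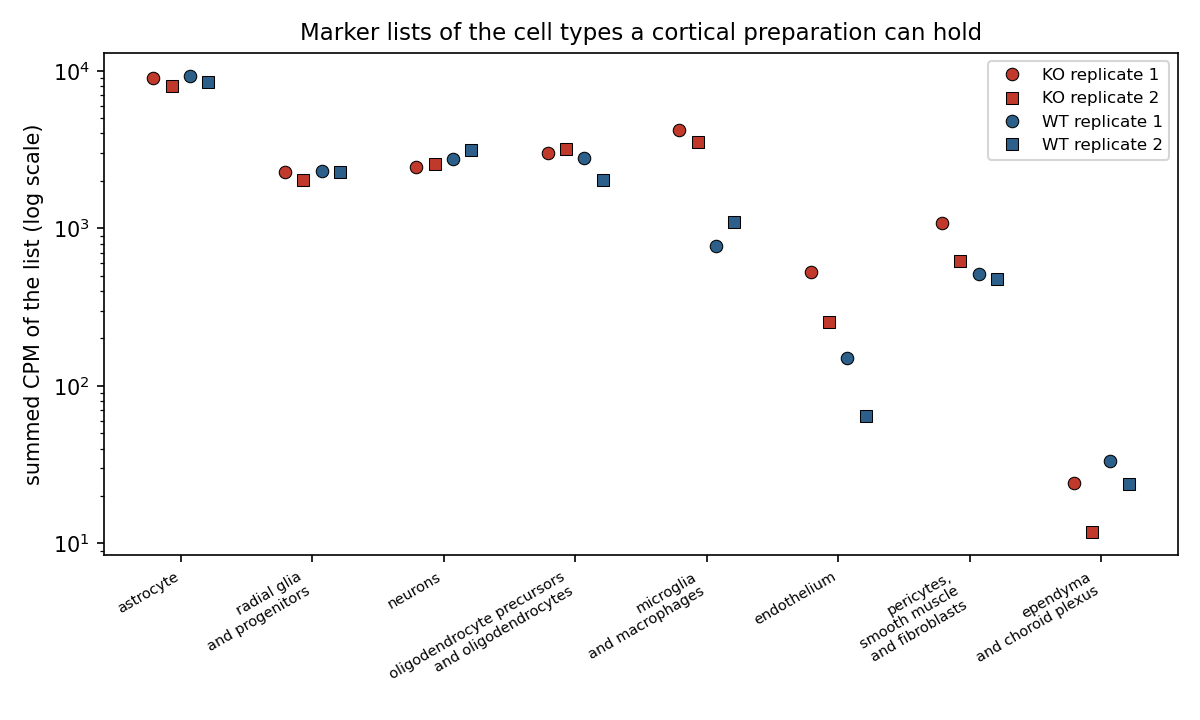
Summed CPM of 8 marker lists in each library, on a log scale. Red points are KO and blue points WT, circles replicate 1 and squares replicate 2. The microglia list lies between 3519 and 4217 CPM in KO and between 777 and 1095 CPM in WT, while the astrocyte list overlaps between the groups.

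None of the 10 genes passed the test between KO and WT (edgeR quasi-likelihood test, Benjamini-Hochberg adjusted over 17696 tested genes), and their adjusted p-values ran from 0.587 to 0.9999. The same test called 0.017% of all tested genes, 3 in number, all higher in KO. Leaving out KO replicate 2 left 0 higher genes and leaving out KO replicate 1 left 6, while the fit lacking WT replicate 1 called 1 and the fit lacking WT replicate 2 called 41. At an unadjusted p under 0.05 there was 1 member, Ptch1, against 8.29% of all tested genes (5.88% higher and 2.41% lower in KO). That p was 0.047 for Ptch1, and it was under 0.05 in 5 of 13 other settings and not in the remaining 8, with a range of 0.043 to 0.21. DESeq2, which called 2.14% of genes, and limma-voom, which called 0.158%, also called 0 members. The log2 fold change was below 0 for 8 of 10 members and for 8854 of the 17696 tested genes. Its median was -0.20 over the members and -0.0003 over all tested genes. In 3 members, Ptch1, Gas1 and Gli1, both KO libraries lay below both WT libraries, a pattern seen in 18.4% of all tested genes. In 1 member, Smo, both lay above, as in 21.2% of all genes. The groups overlapped in the other 6, so 4 of 10 members were separated, against 39.6% of all tested genes. That share is close to the background. In bulk libraries, fewer cells of a type and less RNA per cell cannot be told apart.

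**Figure D2:**
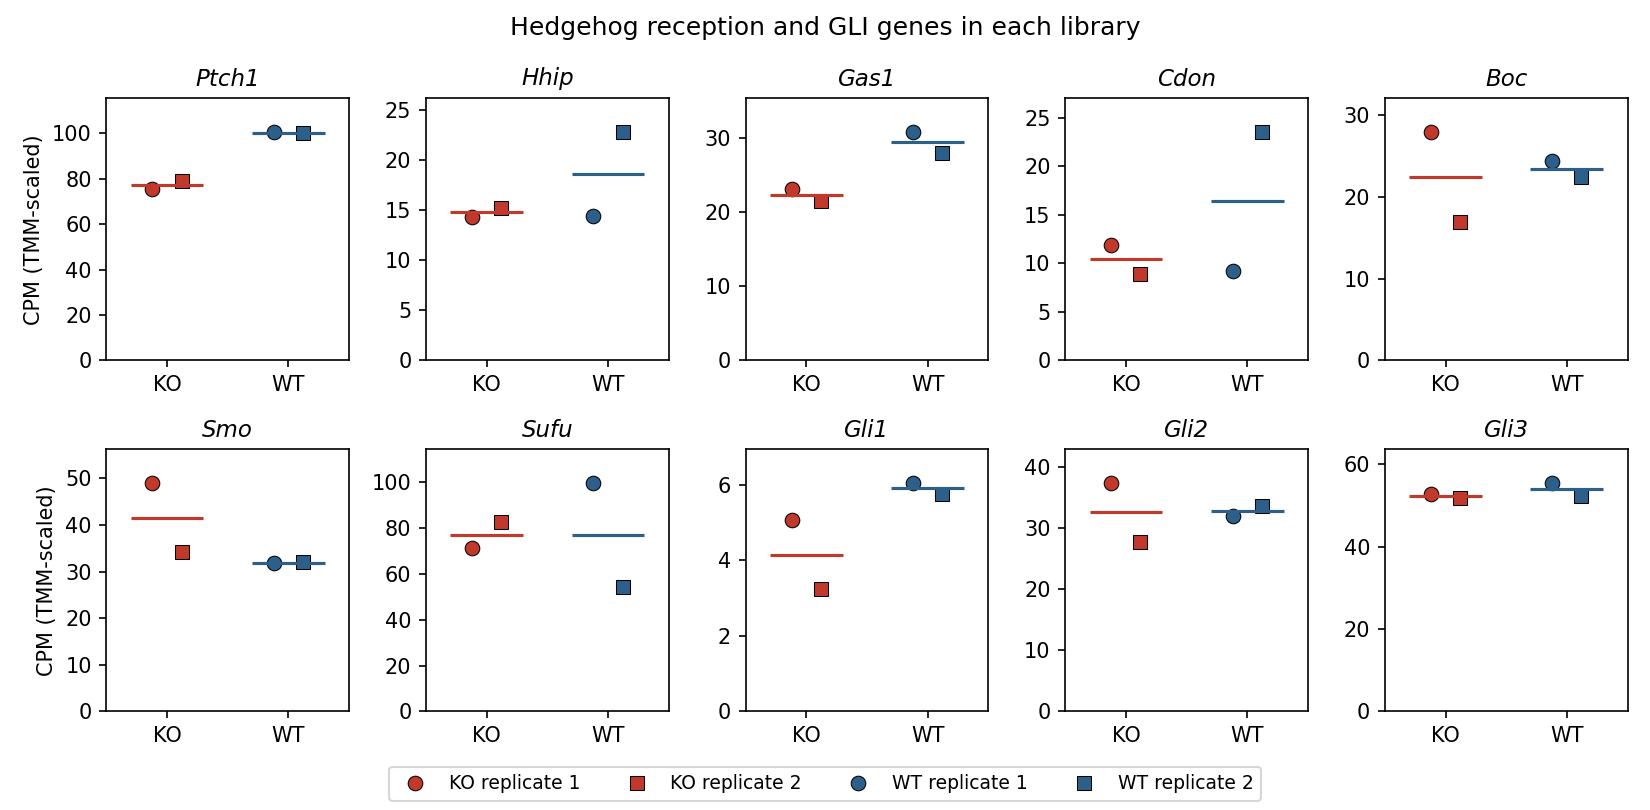
CPM of each of the 10 genes by group, with the y axis of each panel starting at 0. Points are libraries and lines group means (n = 2 each). The KO points lie below the WT points for Ptch1, Gas1 and Gli1, above them for Smo, and overlap for the other 6.

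Ptch1, the receptor and itself a GLI target (ENSMUSG00000021466, chromosome 13, 63508328 to 63573598, minus strand, GRCm38), was measured at 75.4 and 79.1 CPM in the KO libraries, against 100.56 and 100.05 CPM in the WT libraries. The replicates lay within a factor of 1.05 in KO and 1.005 in WT, and the groups did not overlap. The KO mean was 77.2 ± 2.6 CPM and the WT mean 100.3 ± 0.36 CPM (SD, n = 2 each), a fold of 0.770 with a 95% interval of 0.596 to 0.995. On the log2 scale this was -0.38 ± 0.15 (SE, adjusted p = 0.59). It lay between -0.41 and -0.34 when any 1 library was left out, the narrowest such range of the 10 genes. Ptch1 has 14185 exon bases. Stretches of 148, 105 and 101 bases are 95.3%, 95.2% and 96.0% identical to Dusp22, Rhno1 and Gm27896. Reads there could be counted for either gene.

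Gas1, a membrane-anchored co-receptor that binds SHH (ENSMUSG00000052957, chromosome 13, 60174405 to 60177365, minus strand), lies 3.33 Mb from Ptch1. It had 23.1 and 21.5 CPM in the KO libraries, against 30.8 and 28.0 CPM in WT. Both KO values lay below both WT values. Its log2 fold change was -0.40 ± 0.24 (SE, adjusted p = 0.76) and ran from -0.46 to -0.33 with 1 library left out. Of the exon bases of Gas1, 19.9% are also covered by Gm48488, an annotated gene on the opposite strand that the tables do not list. The sources used here do not say whether reads were counted by strand, so reads of the 2 genes cannot be told apart.

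Both genes are shown with their sequence before the start of transcription because they are the members with the closest replicates among the 3 lying lower in both KO libraries. The 250 bases before the RefSeq start (GRCm38.p6) are printed from 5′ to 3′ on the gene's strand, with CpG dinucleotides in capitals. The Ptch1 stretch is chr13:63565736-63565985, minus strand, and lies within the gene because longer transcripts begin further upstream. The Gas1 stretch is chr13:60177536-60177785, minus strand.
Ptch1: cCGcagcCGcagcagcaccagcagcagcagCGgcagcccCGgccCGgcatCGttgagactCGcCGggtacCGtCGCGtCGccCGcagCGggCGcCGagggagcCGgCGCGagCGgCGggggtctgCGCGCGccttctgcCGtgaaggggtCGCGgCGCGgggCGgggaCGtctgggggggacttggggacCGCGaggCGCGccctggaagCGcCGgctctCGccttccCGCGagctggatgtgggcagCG
Gas1: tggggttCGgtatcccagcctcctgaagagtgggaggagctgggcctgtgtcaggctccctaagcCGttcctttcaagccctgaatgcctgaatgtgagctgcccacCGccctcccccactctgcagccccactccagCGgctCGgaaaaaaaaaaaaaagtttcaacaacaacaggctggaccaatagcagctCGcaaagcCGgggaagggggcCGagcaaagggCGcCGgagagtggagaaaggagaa

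The Ptch1 stretch holds 41 CpG dinucleotides and the Gas1 stretch 10. Over the full window of 300 bases, which runs to 50 bases after the start, Ptch1 had 47 CpG dinucleotides, more than 98.6% of 32851 mouse promoters had, and Gas1 had 17. The median promoter had 7. The GLI binding motif GACCACCCA was searched on both strands of these windows and was found in 0 of the 8 members with a window in the table and in 0.253% of all promoters. Gli1 and Boc were not among them. The absence of these letters from a window of this length says nothing about GLI proteins at these genes.

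Gli1, a GLI factor that acts as an activator and is itself switched on by the pathway (ENSMUSG00000025407, chromosome 10, 127329882 to 127341974, minus strand), had the fewest counts. It had 81 and 53 counts in the KO libraries, against 102 and 83 counts in WT, which is 5.06 and 3.25 CPM in KO and 6.04 and 5.77 CPM in WT. The KO values were the lower ones, and KO replicate 2 was the lowest. The exact 95% Poisson interval, which covers counting error only, was 2.43 to 4.25 CPM for KO replicate 2. For KO replicate 1 it was 4.02 to 6.29 CPM and overlapped with 4.93 to 7.34 CPM for WT replicate 1. The fitted log2 fold change was -0.51 ± 0.54 (SE, adjusted p = 0.91), with an interval from -1.83 to 0.82. Leaving out KO replicate 2 gave -0.22, and leaving out KO replicate 1 gave -0.86. Of its exon bases 6.55% are shared with genes on the opposite strand, among them Arhgap9, which had 13.6 and 19.1 CPM in KO and 3.26 and 13.4 CPM in WT.

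Hhip, a membrane protein that binds hedgehog ligands and holds them away from PTCH1, is the other target among the receptors (ENSMUSG00000064325, chromosome 8, 79965851 to 80058006, minus strand). It had 14.4 and 15.3 CPM in the KO libraries, against 14.5 and 22.8 CPM in WT. WT replicate 1 lay level with the KO libraries, and WT replicate 2 alone stood higher. Its log2 fold change was -0.33 ± 0.34 (SE, adjusted p = 0.90), and it was 0.04 without WT replicate 2. The 3 targets thus had values below 0 in the fit, but Hhip owed this to 1 library.

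Cdon and Boc encode related cell surface proteins that bind SHH together with PTCH1. Cdon (ENSMUSG00000038119, chromosome 9, 35421128 to 35507652, plus strand) had 11.9 and 8.89 CPM in the KO libraries, against 9.24 and 23.5 CPM in WT. WT replicate 1 lay among the KO libraries. WT replicates differed by a factor of 2.54, beyond counting error, since their exact Poisson intervals were 7.85 to 10.8 CPM and 21.1 to 26.1 CPM. The log2 fold change of -0.65 ± 0.52 (SE, adjusted p = 0.84) was 0.17 without WT replicate 2. In the authors' deposited tables, each of which compares 1 KO with 1 WT library, Cdon was labelled significant against WT replicate 2 only. The share of all genes with that label was not counted, so the label has no background here. The label needs a log2 fold change of at least 1 in size as well as a p under 0.05. Ptch1 ran from -0.43 to -0.35 there and Gas1 from -0.52 to -0.30, so neither could carry the label. Both had a deposited p under 0.05 in every comparison, but such a p holds no spread between replicate libraries. For Cdon the log2 fold changes were -1.003 and -1.43 against WT replicate 2 and 0.37 and -0.06 against WT replicate 1. These comparisons share their libraries.

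Boc (ENSMUSG00000022687, chromosome 16, 44485049 to 44558897, minus strand) had 27.9 and 16.9 CPM in the KO libraries, against 24.4 and 22.5 CPM in WT. The KO values lay on either side of the WT values. The fit gave Boc a log2 fold change of -0.06 with an SE of 0.32 (adjusted p = 0.99), which was 0.25 when KO replicate 2 was left out and -0.47 when KO replicate 1 was. The co-receptors therefore did not share a pattern over the libraries: Gas1 was separated by group, Cdon was set by WT replicate 2 and Boc differed most between the KO libraries.

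Smo, the transducer that PTCH1 holds inactive (ENSMUSG00000001761, chromosome 6, 29735503 to 29761365, plus strand), was the only member with both KO libraries above both WT libraries. It had 48.9 and 34.1 CPM in the KO libraries, against 31.8 and 32.0 CPM in WT. KO replicate 1 stood clearly higher, and KO replicate 2 lay just above the WT values. The fit gave Smo a log2 fold change of 0.38 with an SE of 0.26 (adjusted p = 0.81), which was 0.10 when KO replicate 1 was left out and 0.62 when KO replicate 2 was. A stretch of 339 bases of Smo is 97.9% identical to Gm4066, so reads there could be counted for either gene.

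Sufu, which binds GLI proteins and restrains them (ENSMUSG00000025231, chromosome 19, 46396896 to 46488804, plus strand), had 71.3 and 82.5 CPM in the KO libraries, against 99.6 and 54.2 CPM in WT. The KO values lay between the WT values, which differed by a factor of 1.84. The fold of KO over WT was 1.00 with a 95% interval of 0.592 to 1.69, so a moderate difference in either direction was not detectable. Its log2 fold change was 0.51 when WT replicate 1 was left out, -0.37 when WT replicate 2 was and -0.11 when KO replicate 2 was.

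Gli2, the main activator of targets, and Gli3, which is the main source of repressor, gave fold changes near 1. Gli2 (ENSMUSG00000048402, chromosome 1, 118834132 to 119053619, minus strand) had 37.3 and 27.8 CPM in the KO libraries, against 31.9 and 33.5 CPM in WT. The KO values lay on either side of the WT values. Gli2 had a fold of 0.995 with a 95% interval of 0.650 to 1.52, and its log2 fold change was 0.19 when KO replicate 2 was left out. It lies on the chromosome of Pdcd1. Gli3 (ENSMUSG00000021318, chromosome 13, 15463235 to 15730026, plus strand) had 52.8 and 51.8 CPM in the KO libraries, against 55.4 and 52.4 CPM in WT. Taken over all 4 libraries regardless of group, these values were the most alike of any member. Gli3 had a fold of 0.970 with a 95% interval of 0.711 to 1.32 (adjusted p = 0.99).

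**Figure D3:**
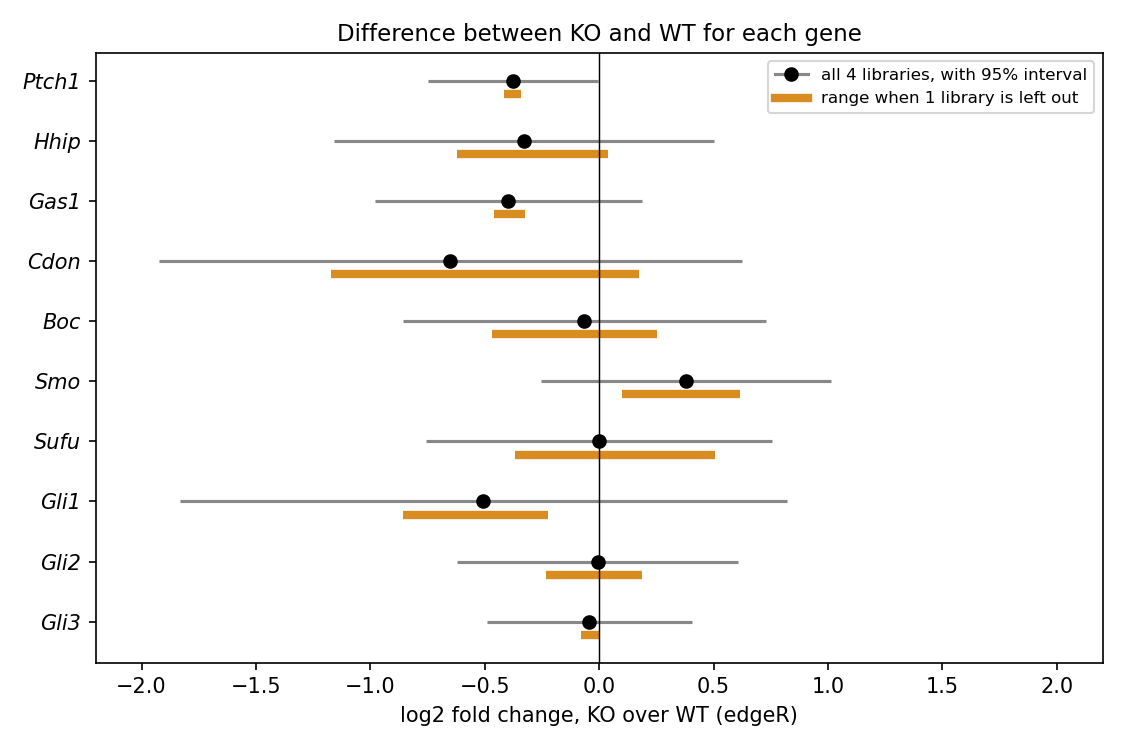
Log2 fold change of KO over WT for each gene (black points) with its 95% interval (grey lines), and the range of values when 1 library is left out (orange bars). Ptch1 and Gas1 have orange bars from -0.41 to -0.34 and from -0.46 to -0.33, and Cdon, Hhip, Boc, Sufu and Gli2 have bars that cross 0.

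The libraries also differed in markers of other cells, so the members were set against the astrocyte markers of the same library. Among the 15 markers, both KO libraries lay below both WT libraries in 4, against 18.4% of all tested genes. They lay above in 1, against 21.2%. At an unadjusted p under 0.05 (edgeR) 2 were lower in KO and 0 higher, against 2.41% and 5.88% of all tested genes. Per 1000 counts of the 15 astrocyte markers, Ptch1 had 8.38 and 9.92 counts in the KO libraries, against 10.8 and 11.8 in WT. Gas1 had 2.57 and 2.70 in KO, against 3.31 and 3.31 in WT. Gli1 had 0.563 and 0.407 in KO, against 0.651 and 0.682 in WT. Smo had 5.44 and 4.27 in KO, against 3.43 and 3.78 in WT. The same 4 members were separated by group on this scale, in the same directions, against 37.2% of all tested genes (12.6% with both KO libraries lower and 24.6% with both higher). In the fit scaled to those markers the log2 fold changes were -0.31 for Ptch1, -0.33 for Gas1, -0.46 for Gli1 and 0.43 for Smo. In that fit 0 members passed, and the median over all tested genes was 0.068. The part in these values of RNA from the microglia, endothelium, oligodendrocyte lineage and pericyte lists, all summing higher in KO, was not tested. Nor was that of neurons, summing lower. The radial glia and progenitor list summed to 2013 to 2288 CPM in KO and 2271 to 2299 CPM in WT. Its median log2 fold change was -0.15. The ependyma and choroid plexus list summed to 11.8 to 24.3 CPM in KO and 23.8 to 33.5 CPM in WT, with a median of -0.82. The part of these 2 lists was not tested either.

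Levels between genes were compared per kb of annotated exon. In order of the mean over the 4 libraries, Sufu stood at 9.997 CPM per kb, Gas1 at 8.73, Smo at 6.53, Ptch1 at 6.26, Gli3 at 5.54, Boc at 5.15, Gli2 at 4.75, Hhip at 1.84, Cdon at 1.74 and Gli1 at 1.01 CPM per kb. The order split into an upper set of 7 and a lower set of 3. The lowest Gli2 value, 4.04 CPM per kb, lay above the highest Hhip value, 2.51 CPM per kb. Between any other neighbours in the order the library values overlapped. The upper set holds Smo, Sufu, Ptch1, Gli2 and Gli3, and 2 of the 3 co-receptors. The lower set holds 2 of the 3 targets and Cdon. Gli1 was last in 3 of the 4 libraries, and its mean lay above that of 20.8% of tested genes. Sufu lay above 70.6%. The whole union of exons was used as length, so a gene with long rarely used exons is placed too low.

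**Figure D4:**
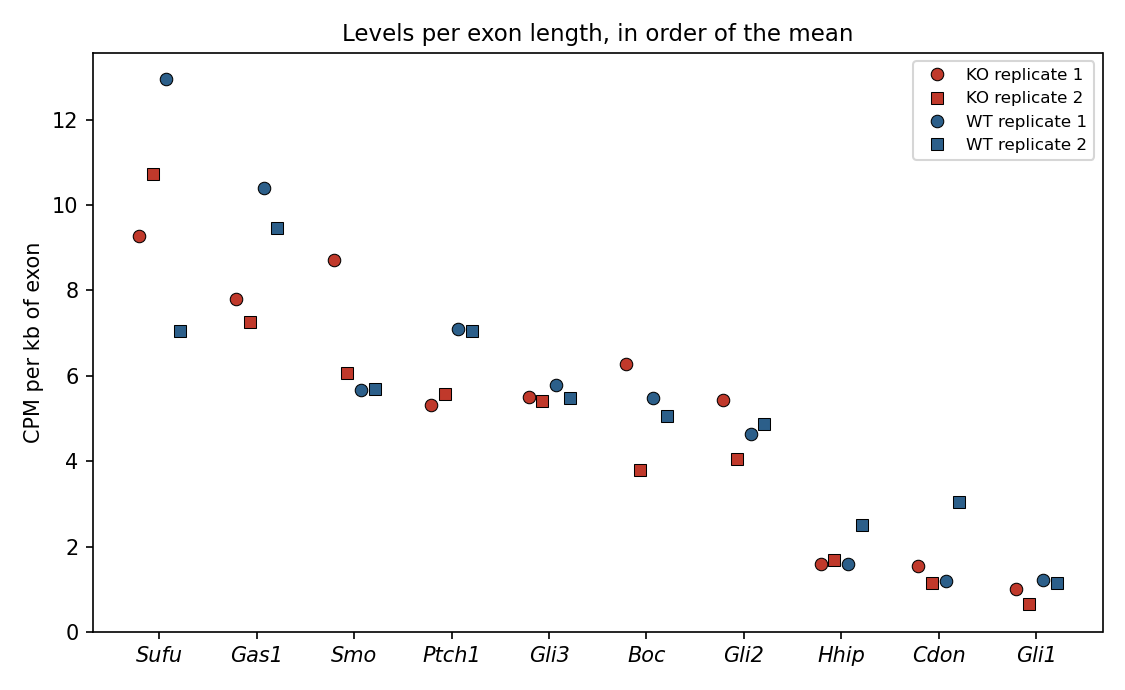
CPM per kb of exon for each gene in the 4 libraries, ordered by the mean. Red points are KO and blue points WT, circles replicate 1 and squares replicate 2. Hhip, Cdon and Gli1 lie at or below 3.05 CPM per kb, and the other 7 genes at or above 3.80.

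Among the ligands, Shh itself was not listed in any library, which leaves room for at most 4 counts in each. Ihh had 19 and 18 counts in the KO libraries, against 2 and 0 in WT, and Dhh had 0 and 1 counts in KO, against 11 and 2 in WT. Ihh was tested and did not pass (adjusted p = 0.64), and Dhh was too low to test. Of the 7 tested genes of ligand production and release 0 passed (edgeR), and the median log2 fold change was 0.47, which is the value of Scube2, a gene at 0 in KO replicate 1 that was chosen after its values were seen. Disp2, a relative of the transporter that releases hedgehog ligands from cells, had the highest CPM of the list. It measured 61.9 and 63.0 CPM in KO, against 42.7 and 40.2 CPM in WT (log2 fold change 0.59 ± 0.18 SE, adjusted p = 0.46). The secreted protein gene Scube1 had 19.4 and 8.34 CPM in KO, against 19.6 and 7.72 CPM in WT (log2 fold change 0.02, or 0.50 without KO replicate 2 and -0.71 without KO replicate 1).

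Of 14 tested genes that act around SMO and the primary cilium 0 passed (edgeR), 11 had a log2 fold change above 0 and the median was 0.10. The ubiquitin ligase gene Mgrn1 had a log2 fold change of 0.33 ± 0.16 (SE), and the glypican Gpc6 had 0.12 ± 0.16. With 1 library left out Mgrn1 ran from 0.19 to 0.48 and Gpc6 from 0.04 to 0.20. Of 16 genes for the processing and transport of GLI proteins 0 passed and the median was 0.06. The protein kinase A subunit Prkar1a had a log2 fold change of 0.12 ± 0.09 (SE) and the casein kinase Csnk1a1 had -0.09 ± 0.10. In these 3 lists together 2 genes, Disp2 and the arrestin Arrb2, had an unadjusted p under 0.05, against 8.29% of all tested genes. Arrb2, chosen after its values were seen, had 19.7 and 19.0 CPM in KO, against 9.30 and 8.55 CPM in WT. The part in these values of RNA from other cells, such as microglia, whose markers summed higher in KO, was not tested.

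Of 13 tested genes described as responding to GLI factors in other settings 0 passed (edgeR), with 6 above 0, 7 below 0 and a median of -0.06. The cyclin Ccnd2 and the proto-oncogene Mycn, the highest of the list by CPM, had log2 fold changes of -0.12 ± 0.09 and -0.20 ± 0.12 (SE). Without KO replicate 2 Ccnd2 was at -0.07, and without WT replicate 2 Mycn was at -0.10. At an unadjusted p under 0.05 there were 3 of these 13, against 8.29% of all tested genes (5.88% higher and 2.41% lower in KO). The 3 were chosen after their values were seen. Bcl2, an inhibitor of cell death, had 24.4 and 24.7 CPM in KO, against 40.6 and 57.0 CPM in WT (log2 fold change -0.99 ± 0.25 SE, adjusted p = 0.39). Kcnj10, a potassium channel gene, had 58.3 and 60.2 CPM in KO, against 40.4 and 35.1 CPM in WT (0.65 ± 0.20, adjusted p = 0.46). Markers of the oligodendrocyte lineage also summed higher in KO, and the part of other cells in the Kcnj10 values was not tested. Sparc, a secreted matrix protein also made by endothelium and microglia, had 331 and 207 CPM in KO, against 150.3 and 145 CPM in WT (0.87 ± 0.23, adjusted p = 0.42), and its log2 fold change was 0.49 without KO replicate 1. DESeq2 called Sparc (adjusted p = 0.010) and no other gene of the 4 lists. These 3 genes did not share a direction with Ptch1 and Gli1: Bcl2 lay below WT as they did, and Kcnj10 and Sparc lay above it.

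**Figure D5:**
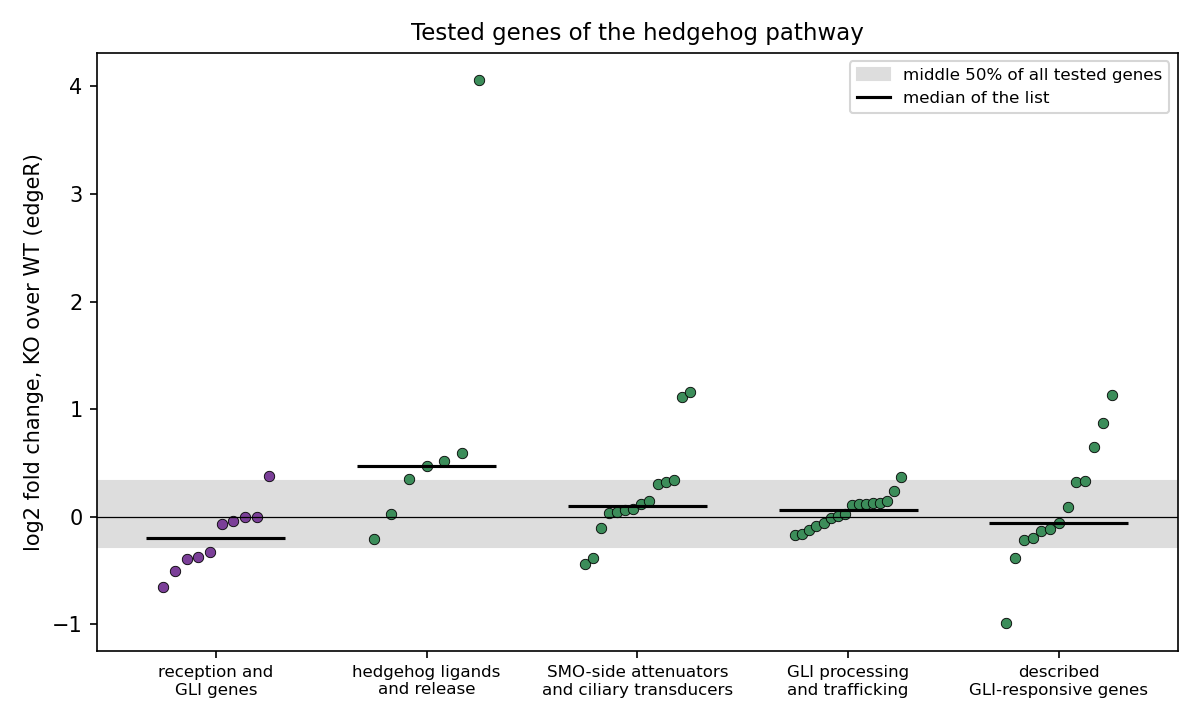
Log2 fold change of KO over WT for the tested genes of 5 lists, with a line at each median and a grey band for the middle 50% of all tested genes. The reception and GLI genes have a median of -0.20, the ligand and release genes 0.47, and the other 3 lists lie within 0.10 of 0. The point near 4 is Ihh, with 19 and 18 counts in KO and 2 and 0 in WT.

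The genes most like Gli1 over the 4 libraries were found by the distance between mean-centred log2(CPM + 1) profiles, among 10490 genes with a mean of at least 10 CPM. They were Prag1, Zfp318 and Zfp830, at distances of 0.021, 0.029 and 0.065. Prag1 had 70.2 and 49.1 CPM in KO, against 81.0 and 79.4 CPM in WT, with KO replicate 2 the lowest as for Gli1. With 4 libraries and this many candidates, close matches are a description of these libraries only.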

How the data were processed

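The data are mRNA sequencing counts of 2 KO and 2 WT libraries. The authors deposited whole-number counts per gene in 4 tables of 1 KO and 1 WT library each. Normalized columns in the deposited tables are CPM (count per 1000000) with 0 replaced by 0.5, and the deposited fold, log2 fold change and p-value columns compare 2 single libraries by a test the headers do not name. The build mm9, TopHat2 2.0.12, HTSeq 0.6.0 and Bowtie2 2.2.3 are named, per the submitters' processing notes. Since 90.6% of gene positions equal GENCODE M21 on GRCm38, all 10 members among them, coordinates are given on GRCm38.

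The tables were joined by gene, with unlisted counts set to 0 (at most 4 can be missing). Groups were compared with edgeR 4.0.16 in R 4.3.3 (TMM, filterByExpr with a minimum count of 10, quasi-likelihood test, Benjamini-Hochberg over 17696 genes, threshold 0.05) without a block. The fit had 2 residual degrees of freedom, and 5.76 in total once spread was shared between genes. Fold change intervals are 95% intervals from the fit and use that total. The fit was also run on simulated data, with results not given here. Chi-square per gene was 20.3 between KO replicates and 30.6 between WT replicates, and all 4 libraries were counted separately. Spread beyond counting error does not show that the WT libraries came from different animals. Alternatives were DESeq2 1.42.0, limma-voom (limma 3.58.1), other scalings and filters, a replicate block and each library left out. Exon lengths and overlaps came from GENCODE M21 and promoters from RefSeq on GRCm38.p6. Members and lists were chosen with earlier results of these data known. Named genes were all members, the ligands Shh, Ihh and Dhh, and from each other pathway list those past the threshold or else the 2 most abundant. Any other gene of those lists is marked where it is named.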

Additional observations from a re-analysis of the deposited data

How the results depend on the processing

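In all 13 alternatives 0 of the 10 members passed, with adjusted p-values from 0.26 upwards. Ptch1, Gas1, Gli1 and Smo kept their direction in every alternative. Their groups did not overlap, so leaving out 1 library could not turn them round, and this adds no support. Gli2 was at 0.046 on the log2 scale and Gli3 at 0.024 when scaled to astrocyte markers. With 1 library left out, Gli2 ran from -0.23 to 0.19, Hhip from -0.62 to 0.038, Cdon from -1.17 to 0.17, Boc from -0.47 to 0.25, Sufu from -0.37 to 0.51 and Scube1 from -0.71 to 0.85. Sufu was at -0.0040 with DESeq2, -0.0044 with its size factors (RLE), -0.0090 with library totals, -0.00045 with no filter and -0.00074 over genes averaging 5 CPM or more. The median log2 fold change over all tested genes was 0.068 when scaled to astrocyte markers. It was -0.006 with DESeq2 and with RLE, and -0.013 with library totals. With no filter it was 0.022, and over genes averaging 5 CPM or more it was -0.008. The cause of the changes in Gli2, Gli3, Hhip, Cdon, Boc, Sufu and Scube1 was not tested.

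Genes called higher and lower over the whole table numbered 3 and 0 in edgeR, 315 and 63 with DESeq2, 25 and 3 with limma-voom, 52 and 4 with no filter, 63 and 5 over genes averaging 5 CPM or more, and 5 and 0 when scaled to astrocyte markers. With 1 library left out they ranged from 0 to 41 higher and from 0 to 1 lower, where the lone library is assumed to vary like the others. Of the other pathway lists 0 genes passed except 1 with DESeq2. With the replicate number as a block, 4 were higher and 0 lower, and 0 members passed. Same-numbered libraries did not deviate together (correlation of deviations 0.045). With 2 libraries a group this is a single correlation, so it cannot decide whether the numbers pair the samples. With 2 libraries a group, the intervals above set what could be seen, and for Gli1 the low counts widen them further.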
